A study of Mus musculus with 23 samples.

Results

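The genes described here are the 52 whose counts were low in the testis of CAST/EiJ mice and not in that of the other strains of the series, out of 28861 genes in the count table. They were chosen by level: a mean of at least 5 CPM (a gene's estimated counts per 1000000 counts of its library) in both C57BL/6J and NZO/HlLtJ, and a CAST/EiJ mean of at most 1/8 of the lower of those means. Of 11807 genes with 5 CPM in both strains, 153 (1.3%) passed, and 101 of these were set aside for their symbols, most of them unnamed gene models (51 with a Gm number, 45 ending in Rik). Since the strain means chose the genes, their low CAST/EiJ level is given as a description, with no test.

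Testis RNA came from 23 wild-type males of 3 inbred strains: C57BL/6J, which is the strain of the mouse reference genome, NZO/HlLtJ, which is prone to obesity and diabetes, and CAST/EiJ, which is wild-derived. From 6 to 16 weeks of age the males were fed either the control diet (10% fat) or a high-sugar diet with 44% of fat, and fiber was part of both. The groups held 4 libraries on 10% fat and 4 on 44% fat for C57BL/6J, 4 and 4 for NZO/HlLtJ, and 3 and 4 for CAST/EiJ. The strains carried no engineered allele per the labels, and the sources used here do not say whether each strain's variants were taken into account in alignment. Nothing in the labels says how mice were housed or tissues pooled, so p-values measure the spread between these libraries.

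Library totals, in units of 1000000 estimated counts, ran from 21.9 to 78.7. Testis markers were present in every strain: the 6 elongating-spermatid markers summed to between 8666 and 11763 CPM per library. The 10 Sertoli-cell markers summed to 316 to 427 CPM in NZO/HlLtJ, against 256 to 287 CPM in C57BL/6J and 264 to 290.5 CPM in CAST/EiJ. Spermatogonial markers (7 genes) summed to 171 to 230 CPM in NZO/HlLtJ, against 104 to 117 CPM in C57BL/6J and 130 to 146 CPM in CAST/EiJ. Summed peritubular myoid markers (4 genes) were at 151 to 176 CPM in CAST/EiJ against 283 to 320 CPM elsewhere, mostly through Actg2 (210, 180 and 87.6 CPM in C57BL/6J, NZO/HlLtJ and CAST/EiJ), while Acta2 stood at 47.3, 64.5 and 40.6 CPM. Leydig markers (7 genes) summed to 1103 to 1655 CPM in NZO/HlLtJ against 462 to 780 CPM elsewhere, mostly through Cyp17a1 (283, 546 and 161 CPM) and Hsd3b1 (58.6, 331 and 65.4 CPM), while Star (88.2, 74.8 and 75.2 CPM) and Cyp11a1 (108, 80.6 and 148 CPM) were not higher there. The part of these cell types in the results was not tested. Of 6 epididymal markers 3 were in the table. Their sum stood out in 1 C57BL/6J library (10% fat replicate 2, 13.8 CPM) and 1 CAST/EiJ library (44% fat replicate 2, 97.5 CPM). The strain means were 1.85, 0.0412 and 13.9 CPM for Crisp1, 0.0479, 0.0662 and 0.0258 CPM for Defb20, and 0.666, 0.779 and 0.260 CPM for Defb21. The sum in that CAST/EiJ library thus rested nearly all on Crisp1. No marker list held any of the 52 genes, and all 52 were chosen again with both of these libraries left out. In bulk RNA, fewer cells of a type and less RNA per cell cannot be told apart.

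A transcript can be copied into DNA and inserted elsewhere in the genome. The resulting processed pseudogene has no introns and starts out identical to the coding sequence of its parent. Ribosomal protein genes, which are transcribed in every cell, have many such copies. A short read from a pair of near-identical genes can be assigned to either one, so the count of each rests on the few bases that differ. Testis also transcribes an unusually broad range of genes, many of them best known from brain, kidney, skin or ovary.

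Sequence shows how close these pairs are. Apart from Gpr137b-ps, which has 5 exons, 8 of the 52 genes carry "ps" symbols naming a parent at another locus. These are Rpl9-ps6, Rpl19-ps11, Rpl27-ps3, Rpl17-ps8, Rps12-ps3, Rpl10a-ps1, Tubb4b-ps1 and Mark1-ps3. GENCODE M21 lists 7 of them, each with 1 exon, and it lists Rpl9-ps6 and Rps12-ps3 as protein coding. The lines below show 60-base windows of the coding part, 5′ to 3′, of the pseudogene and of the spliced parent transcript, from GENCODE M21 (GRCm38); capitals mark bases that differ. The Rpl9-ps6 window lies at chr19:32466257-32466316 on the minus strand, within the gene's only exon. The Rpl19-ps11 window lies at chr8:19493096-19493155 on the plus strand, the Rps12-ps3 window at chr19:59322371-59322430 on the plus strand, and the Tubb4b-ps1 window at chr5:7180519-7180578 on the plus strand.
Rpl9-ps6: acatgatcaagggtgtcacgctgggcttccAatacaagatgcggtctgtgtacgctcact
Rpl9: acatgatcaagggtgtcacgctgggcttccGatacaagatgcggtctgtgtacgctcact
Rpl19-ps11: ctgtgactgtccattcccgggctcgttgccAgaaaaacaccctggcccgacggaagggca
Rpl19: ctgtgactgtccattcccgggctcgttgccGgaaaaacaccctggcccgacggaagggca
Rps12-ps3: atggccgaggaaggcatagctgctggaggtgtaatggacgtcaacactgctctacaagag
Rps12: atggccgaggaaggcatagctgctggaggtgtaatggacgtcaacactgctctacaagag
Tubb4b-ps1: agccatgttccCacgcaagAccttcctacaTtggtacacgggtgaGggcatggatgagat
Tubb4b: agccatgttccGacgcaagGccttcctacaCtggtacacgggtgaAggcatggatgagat

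Counted from 1 at the 5′ end of each window, with the parent's base first, the difference was G31A for Rpl9-ps6 and G31A for Rpl19-ps11. The Tubb4b-ps1 window held G12C, G20A, C31T and A46G. The Rps12-ps3 window had no difference. Over whole alignments, Rpl9-ps6 differed from Rpl9 at 1 of 692 bases, Rpl19-ps11 from Rpl19 at 1 of 591, and Rpl17-ps8 from Rpl17 at 2 of 620. Rps12-ps3 (494 bases), Rpl27-ps3 (411 bases) and Rpl10a-ps1 (654 bases) had 0 differences from their parents. Tubb4b-ps1 differed from Tubb4b at 19 of 1336 bases. Reads were 100 bases long, so most reads from the aligned part of the ribosomal pairs cover no base that differs.

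Counts of 5 of the 6 ribosomal pseudogenes and their parents changed places between strains, with Rpl10a-ps1 the exception. Rpl9 encodes a protein of the large ribosomal subunit. Rpl9-ps6 (chr19:32465885-32466575, minus strand) ran from 78.5 through a median of 84.0 to 101 CPM in the 8 C57BL/6J libraries and from 86.2 through 89.3 to 102 CPM in the 8 NZO/HlLtJ libraries. In the 7 CAST/EiJ libraries it ran from under 0.01 through 0.0290 to 0.268 CPM. Its parent Rpl9 (chr5:65388364-65391444) went the other way, with 11.1 ± 1.82 CPM in C57BL/6J (SD, n = 8), 9.79 ± 2.00 CPM in NZO/HlLtJ (n = 8) and 82.5 ± 6.05 CPM in CAST/EiJ (n = 7). The sum of the pair was 98.3 ± 7.81, 102 ± 5.86 and 82.6 ± 6.03 CPM in the same order. No CAST/EiJ library overlapped the others for either gene alone, while the highest CAST/EiJ sum (88.6 CPM) came close to the lowest C57BL/6J sum (89.7 CPM).

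Rpl19, another large-subunit protein gene, gave the same picture with Rpl19-ps11 (chr8:19492906-19493623, plus strand). The pseudogene held 94.2 to 114 CPM in C57BL/6J (median 102), 108 to 132 CPM in NZO/HlLtJ (median 115) and under 0.01 to 0.354 CPM in CAST/EiJ (median 0.0978). Rpl19 held 19.2 ± 4.33, 18.1 ± 3.71 and 112 ± 4.77 CPM. The sums, 122 ± 9.44, 135 ± 9.39 and 112 ± 4.82 CPM, gave a CAST/EiJ sum at 0.915 times the lower of the others.

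Rpl17-ps8, which lies on the X chromosome (chrX:96484859-96485479, plus strand) inside Heph, held 94.2 to 121 CPM in C57BL/6J (median 114), 115 to 139 CPM in NZO/HlLtJ (median 120) and under 0.01 to 1.05 CPM in CAST/EiJ (median 0.554). Rpl17 held 3.14 ± 1.22, 2.68 ± 0.502 and 115 ± 6.96 CPM, so it was 36.5 times higher in CAST/EiJ than in the higher of the other strains. The pseudogene made up 97.3% ± 0.890 of the pair in C57BL/6J and 0.539% ± 0.355 in CAST/EiJ.

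Rps12, of the small ribosomal subunit, has its copy Rps12-ps3 at chr19:59322290-59322783 (plus strand), inside Pdzd8 and on the opposite strand. Rps12-ps3 held 47.2 to 62.9 CPM in C57BL/6J (median 55.0), 58.3 to 75.1 CPM in NZO/HlLtJ (median 63.4) and 1.76 to 2.74 CPM in CAST/EiJ (median 1.96). Rps12 held 1.32 ± 0.686, 1.89 ± 1.17 and 57.7 ± 3.13 CPM. The counts of this pair were thus nearly all on the pseudogene in C57BL/6J and NZO/HlLtJ and nearly all on the parent in CAST/EiJ, for transcripts without a differing base in the reference. Pdzd8 held 414, 334 and 420 CPM.

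Rpl27-ps3 on chromosome 18 held 58.2 to 77.0 CPM in C57BL/6J (median 63.0), 64.6 to 84.0 CPM in NZO/HlLtJ (median 70.6) and under 0.01 to 0.441 CPM in CAST/EiJ (median 0.247), beside 9.57 ± 1.22, 10.6 ± 1.54 and 63.4 ± 4.05 CPM of Rpl27. Rpl10a-ps1 (chr1:64993951-64994604, minus strand) held a smaller share of its pair, and its parent was the higher of the pair in every strain. It made up 32.8% ± 11.0 of the counts in C57BL/6J, 28.3% ± 6.14 in NZO/HlLtJ and 0.348% ± 0.341 in CAST/EiJ. Its levels were 7.33 to 20.9 CPM (median 12.7), 9.07 to 21.3 CPM (median 15.4) and under 0.01 to 0.342 CPM (median 0.170). The sums of Rpl10a-ps1 and Rpl10a were 41.9 ± 2.83, 53.0 ± 4.74 and 40.0 ± 2.63 CPM, and Rpl10a itself stood at 28.2, 38.0 and 39.9 CPM.

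In the remaining 3 pairs the parent's CAST/EiJ mean was 0.798 to 1.06 times the higher mean of the other strains. Tubb4b was above its pseudogene in every strain. Mark1-ps3 and Gpr137b-ps were above their parents in C57BL/6J and NZO/HlLtJ and below them in CAST/EiJ. Tubb4b, a beta-tubulin gene that is abundant in testis, held 1113 ± 47.6, 1048 ± 41.3 and 1177 ± 44.6 CPM, while Tubb4b-ps1 (chr5:7179365-7180700, plus strand) held 28.2 to 38.1 CPM in C57BL/6J (median 33.6), 22.8 to 29.0 CPM in NZO/HlLtJ (median 26.0) and 1.71 to 2.91 CPM in CAST/EiJ (median 2.20). Mark1-ps3 (chr17:53723690-53724383, plus strand), inside 4932415M13Rik, averaged 13.1 ± 1.04, 13.4 ± 1.14 and 0.385 ± 0.318 CPM, beside 5.12 ± 0.337, 5.90 ± 0.454 and 5.98 ± 0.792 CPM of the kinase gene Mark1. Gpr137b-ps on chromosome 13, a pseudogene with 5 exons, averaged 9.04 ± 0.953, 9.84 ± 0.577 and 0.800 ± 0.181 CPM, beside 3.60 ± 0.336, 4.99 ± 0.858 and 3.98 ± 0.440 CPM of Gpr137b. The CAST/EiJ sum stayed at 0.350 times the lower of the other strains for Mark1 and 0.379 times for Gpr137b.

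**Figure D1:**
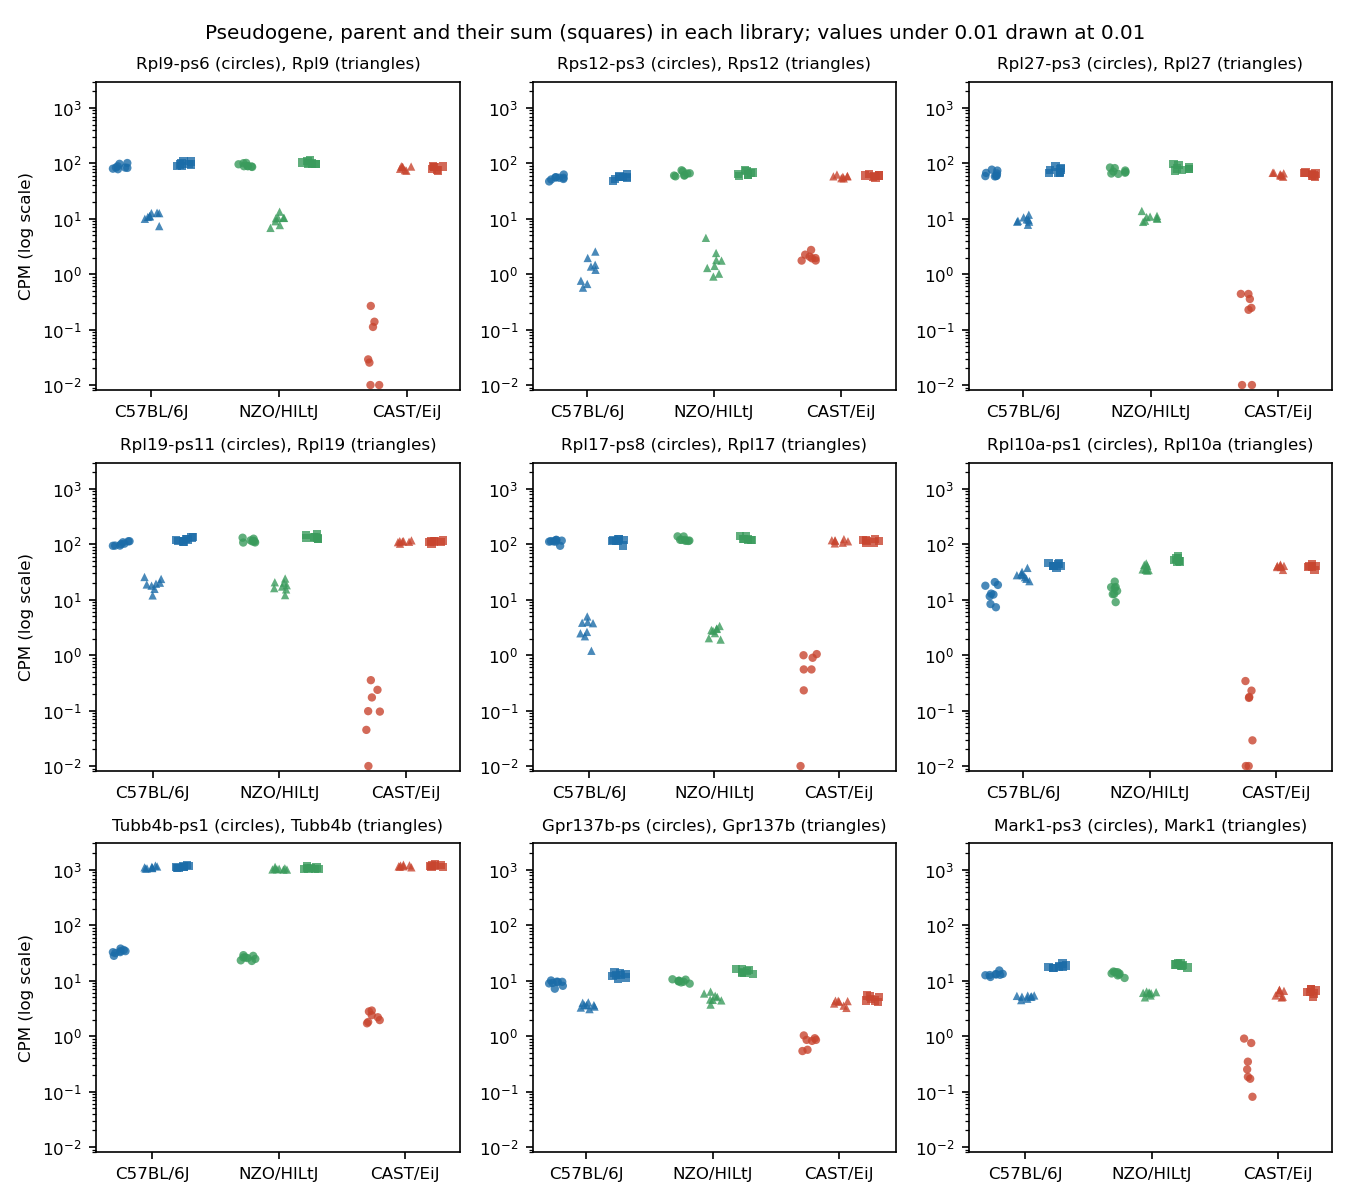
CPM of 9 pseudogenes (circles), their parents (triangles) and the sum of both (squares) in each library, on a log axis, by strain; values under 0.01 are drawn at 0.01. For the Rpl9, Rpl19, Rpl27, Rpl17 and Rps12 pairs the circles are low and the triangles high in CAST/EiJ, while the squares stay within 0.84 to 1.07 times the lower mean of the other strains.

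A search for close copies of all 51 genes found in GENCODE M21 (at least 90% identity over at least 50% of the longest transcript) gave 13 with a copy in the count table. Summed over the gene and its copies, 10 of these 13 no longer met the limit of 1/8, and 42 of the 52 genes remained. These 10 were the 6 ribosomal pseudogenes, Tubb4b-ps1, Samt1, Slxl1 and Agtr1a. For the ribosomal pseudogenes, Samt1 and Slxl1 the CAST/EiJ sum was 0.841 to 1.07 times the lower of the others. For these the label of a loss in CAST/EiJ holds for the single entry and not for the sum. The sum of Agtr1a and its copy missed the limit but was still 5.85 times lower in CAST/EiJ. The Tubb4b-ps1 sum says nothing of the pseudogene, since Tubb4b makes up nearly all of it in every strain. For Dsg1a, Cntnap5b and Plac9b the summed counts were still low. The 42 include Mark1-ps3, which could not be searched, and Gpr137b-ps, whose match to its parent covered only 28.7% of its transcript. Summed with their parents, these were at 0.350 and 0.379 times the lower of the others, above the limit of 1/8.

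Samt1 and Slxl1 belong to X-linked families with many copies that are transcribed in germ cells. Slxl1 is related to the sex-linked genes Slx and Sly, which act in spermatids. Samt1 (chrX:154001590-154012640, minus strand) held 5.76 to 8.40 CPM in C57BL/6J (median 6.64) and 9.54 to 11.97 CPM in NZO/HlLtJ (median 11.1). In CAST/EiJ 6 of 7 libraries had under 0.5 estimated counts of it and 1 had 0.112 CPM. Its 8 copies in the table, all at 96.4% identity or more, were not low as a group: gene and copies together held 35.4 ± 2.67, 28.4 ± 1.56 and 25.4 ± 1.52 CPM. The copy 4921511M17Rik, identical over all 984 bases, was at 5.13, 8.83 and 11.0 CPM, and Gm10057, identical at 983 of 984, was at 10.9 CPM in C57BL/6J and under 0.1 CPM in both other strains.

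Slxl1 (chrX:55226876-55243723, plus strand) held 15.1 to 18.2 CPM in C57BL/6J (median 16.1), 12.17 to 15.5 CPM in NZO/HlLtJ (median 13.2) and 1.11 to 1.84 CPM in CAST/EiJ (median 1.41). With its 14 copies it held 82.6 ± 6.40, 87.1 ± 5.67 and 69.8 ± 4.91 CPM. Among the copies Gm16405 went from 15.0 and 19.0 CPM to under 0.01 CPM in CAST/EiJ, whereas Gm16404 and Gm14625 each went from 2.42 and 2.05 CPM to 20.2 CPM. Counts of these near-identical genes are uncertain one by one. Of the 4 Samt genes listed as a family, Samt3 stood at 6.73, 5.17 and 10.4 CPM, with Samt1 the only one of the 2 above 5 CPM in both strains to pass the limit.

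Adhesion molecules and receptors made up 9 of the 52 genes, between 10.2 and 219 times lower in CAST/EiJ. Dsg1a encodes desmoglein 1-alpha, a cadherin of the desmosomes that join epithelial cells. It held 54.7 to 74.0 CPM in C57BL/6J (median 64.5), 49.6 to 61.9 CPM in NZO/HlLtJ (median 54.4) and 0.115 to 0.721 CPM in CAST/EiJ (median 0.563). Its close copies Dsg1b (7.87, 4.92 and 3.52 CPM) and Dsg1c (1.22, 1.64 and 0.586 CPM) did not fill the gap, since the sum with Dsg1a was 73.5, 60.9 and 4.63 CPM. Of the 14 desmosome genes in the table, 3 had 5 CPM in both strains, the other two being the junction protein genes Jup (51.3, 47.8 and 40.3 CPM) and Pkp4 (22.7, 26.7 and 26.1 CPM).

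Cntnap5b, of the contactin-associated protein family of neuronal adhesion molecules, spans chr1:99772765-100485942 (plus strand). It held 79.4 to 96.0 CPM in C57BL/6J (median 83.6), 59.1 to 69.0 CPM in NZO/HlLtJ (median 64.5) and 1.70 to 2.03 CPM in CAST/EiJ (median 1.89). Its copy Cntnap5c, identical at 3493 of 3879 aligned bases, was also lower in CAST/EiJ, at 0.112 CPM against 2.57 and 3.27 CPM. Cntnap2, a relative expressed in brain, was at 31.5, 33.0 and 21.8 CPM.

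Klrb1, a lectin-like receptor gene of the natural killer cluster on chromosome 6 (chr6:128705836-128723059, minus strand), held 13.5 to 15.9 CPM in C57BL/6J (median 14.4), 14.0 to 16.1 CPM in NZO/HlLtJ (median 15.2) and 0.0254 to 0.174 CPM in CAST/EiJ (median 0.0524). Of the 11 genes in the table from the list of killer cell lectin receptors and their ligands, Klrb1 was the only one with 5 CPM in both strains. Lymphocyte and natural killer markers, 6 of 8 in the table, summed to 1.83 to 2.78 CPM in C57BL/6J, 1.16 to 2.84 CPM in NZO/HlLtJ and 0.788 to 1.65 CPM in CAST/EiJ, and the part of such cells in the Klrb1 level was not tested.

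Grik2, a kainate-type glutamate receptor subunit gene (chr10:49099460-49788766, minus strand), held 6.90 to 8.81 CPM in C57BL/6J (median 7.23), 5.65 to 7.49 CPM in NZO/HlLtJ (median 6.17) and 0.0290 to 0.127 CPM in CAST/EiJ (median 0.0786). Gm26543, which overlaps Grik2 on the same strand, was at 4.54, 5.07 and 16.8 CPM. Of the other kainate receptor genes, Grik3 was higher in CAST/EiJ, at 1.13, 1.85 and 12.1 CPM. Lower there were Grik5 (65.5, 63.1 and 44.4 CPM), Grik4 (3.41, 3.68 and 1.14 CPM) and Grik1 (0.612, 0.431 and 0.139 CPM). The counts of Grik2 and Gm26543 may be shared where they overlap.

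Agtr1a, a receptor for angiotensin II, held 16.8 to 21.4 CPM in C57BL/6J (median 17.7), 11.1 to 15.5 CPM in NZO/HlLtJ (median 13.6) and 0.435 to 0.865 CPM in CAST/EiJ (median 0.576). Its copy Agtr1b was at 0.835, 0.876 and 1.78 CPM, which brought the CAST/EiJ sum to 0.171 times the lower of the others. The other 4 were the adhesion receptor Adgrf3, the ephrin receptor Epha7, the adhesion molecule Dscaml1 and the oxoglutarate receptor Oxgr1, between 10.2 and 21.2 times lower.

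Enzymes, their partners and transporters made up another 10 genes, between 8.12 and 55.6 times lower. Bhmt encodes betaine-homocysteine methyltransferase, which makes methionine from homocysteine and is best known from liver. It held 102 to 139 CPM in C57BL/6J (median 120), 130 to 204 CPM in NZO/HlLtJ (median 151) and 8.94 to 19.4 CPM in CAST/EiJ (median 14.6). Svbp encodes the small partner of the vasohibins, which remove the end tyrosine of alpha-tubulin. It held 48.7 to 54.9 CPM in C57BL/6J (median 52.2), 51.3 to 57.9 CPM in NZO/HlLtJ (median 55.1) and 1.51 to 2.20 CPM in CAST/EiJ (median 1.73).

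Ndst4, an enzyme that modifies heparan sulfate, held 39.8 to 49.1 CPM in C57BL/6J (median 44.9), 37.5 to 40.6 CPM in NZO/HlLtJ (median 39.4) and 0.838 to 1.50 CPM in CAST/EiJ (median 1.19). Its 3 relatives, Ndst1, Ndst2 and Ndst3, stood at 23.7, 30.5 and 19.6 CPM in CAST/EiJ, against 23.3, 33.9 and 23.6 CPM in C57BL/6J. Prss56, a serine protease gene studied in eye growth, held 9.90 to 14.2 CPM in C57BL/6J (median 12.17), 8.66 to 11.7 CPM in NZO/HlLtJ (median 9.44) and 0.0761 to 0.262 CPM in CAST/EiJ (median 0.203). The other 6 were the lactonase Pon2, the urea transporter Slc14a2, the kinase Hunk, the kinase-like Fam20a, the ubiquitin ligase Trim13 and the interferon-induced Oasl2, between 8.12 and 21.8 times lower.

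**Figure D2:**
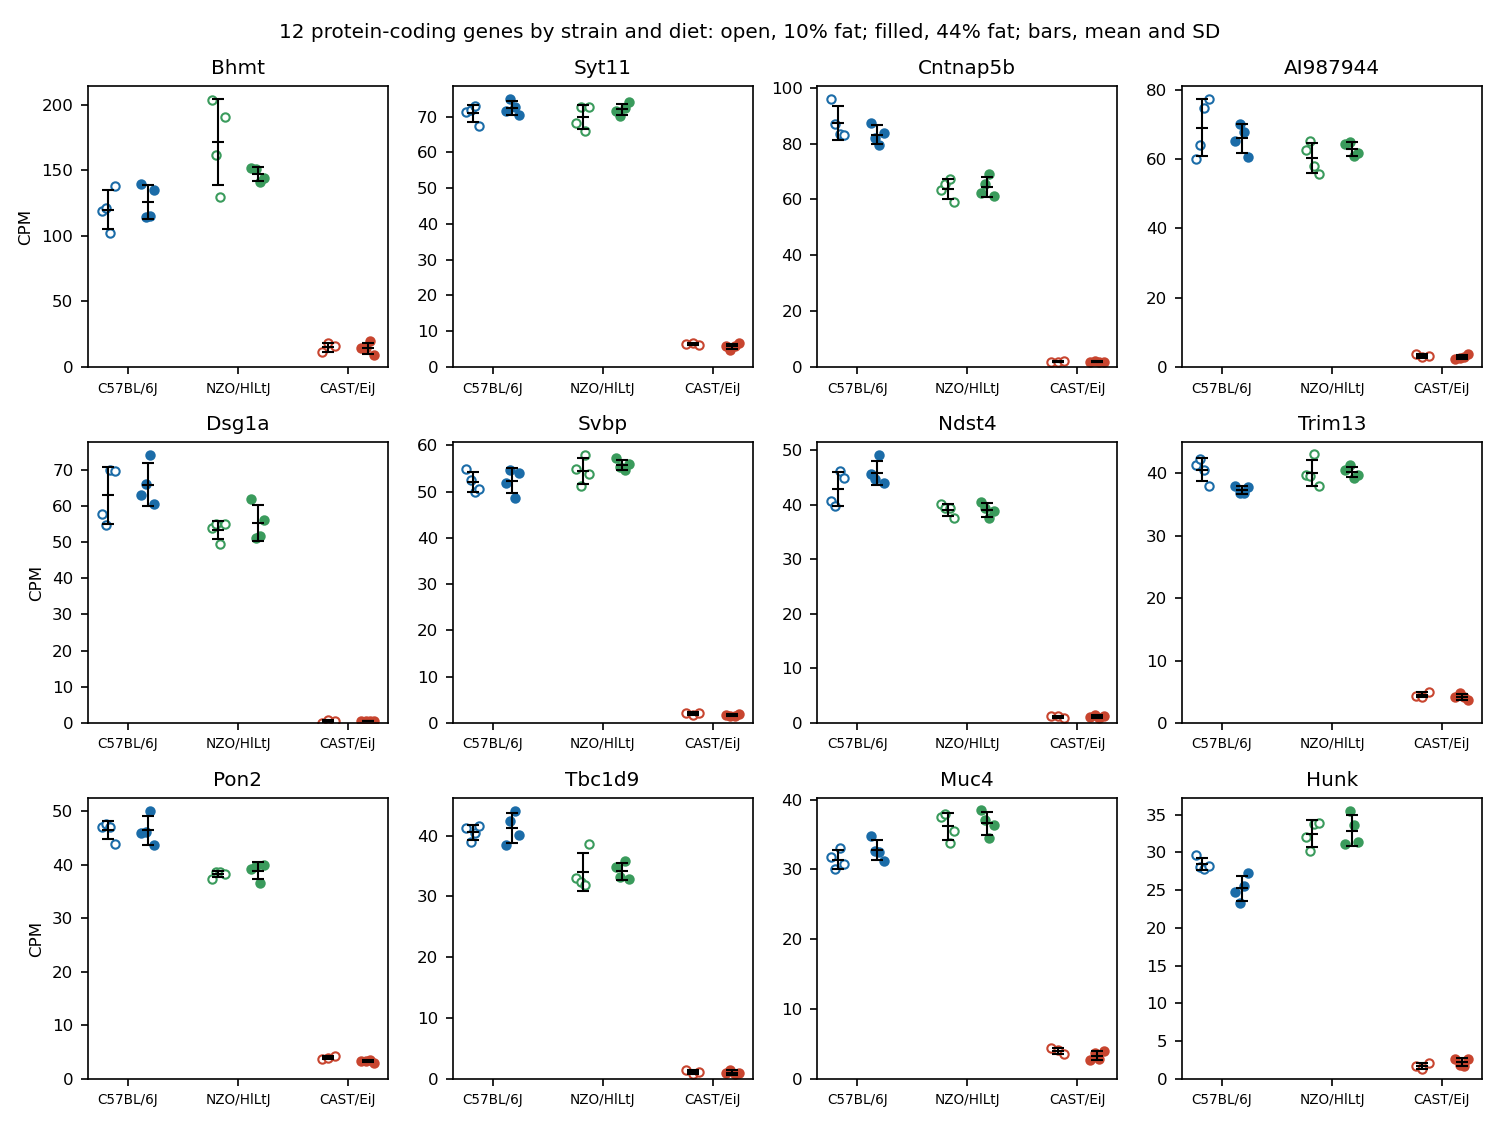
CPM in each library of the 12 protein-coding genes with the highest lower mean, pseudogenes left out, by strain and diet. Open circles are 10% fat, filled circles 44% fat, bars the mean and SD of 3 or 4 libraries, and axes start at 0. Every CAST/EiJ library lies below every other library for each gene, for example at most 19.4 CPM against at least 102 CPM for Bhmt. The rule used this contrast, and the same holds for 18.3% of the 11807 genes with 5 CPM. The diets lie close together within a strain.

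Genes of transcription and RNA processing numbered 5, between 8.08 and 43.3 times lower. AI987944 (chr7:41372923-41393379, minus strand) held 60.1 to 77.2 CPM in C57BL/6J (median 66.6), 55.8 to 65.1 CPM in NZO/HlLtJ (median 62.2) and 2.29 to 3.83 CPM in CAST/EiJ (median 2.96). Pou2f2, a transcription factor gene known from B cells, averaged 20.4 ± 2.56, 22.9 ± 1.89 and 1.19 ± 0.326 CPM, while its relative Pou2f1 was at 62.9, 67.4 and 67.9 CPM. Cpsf4l, related to a subunit of the complex that cleaves RNA before polyadenylation, Zbed3 and the zinc finger gene Zfp78 completed the group.

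Secreted proteins and a mucin made up 3. Gdf9, a growth factor of the TGF-beta family known as a product of the oocyte, averaged 8.88 ± 0.547, 6.57 ± 0.763 and 0.167 ± 0.0598 CPM. Muc4, a membrane mucin, averaged 32.1 ± 1.46, 36.4 ± 1.66 and 3.62 ± 0.637 CPM. Plac9b averaged 5.05 ± 1.01, 7.11 ± 0.759 and 0.123 ± 0.0970 CPM, and its identical copy Plac9a was at 0.697, 0.706 and 0.0920 CPM.

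Of the 8 genes of membrane traffic, signalling and other membrane proteins, Pdzph1 was lowest relative to the other strains. Pdzph1 (chr17:58878808-58991375, minus strand), whose protein has PDZ and PH domains, held 8.42 to 11.7 CPM in C57BL/6J (median 9.95), 8.60 to 11.4 CPM in NZO/HlLtJ (median 9.57) and 0 to 0.127 CPM in CAST/EiJ (median 0.0278). Syt11, a synaptotagmin that acts in vesicle traffic, held 67.5 to 75.0 CPM in C57BL/6J (median 71.7), 66.0 to 74.0 CPM in NZO/HlLtJ (median 72.0) and 4.82 to 6.79 CPM in CAST/EiJ (median 6.21). Tbc1d9, with the domain of Rab GTPase-activating proteins, averaged 40.9 ± 1.85, 34.1 ± 2.23 and 1.11 ± 0.321 CPM. Tmem79, a membrane protein gene known from skin, held 4.06 to 7.26 CPM in C57BL/6J (median 5.43), 4.87 to 8.79 CPM in NZO/HlLtJ (median 6.42) and 0.101 to 0.320 CPM in CAST/EiJ (median 0.240). The other 4, Tmed6, Apbb1ip, Pcnxl2 and Tmem130, averaged between 8.25 and 11.9 CPM in the other strains and at most 1.23 CPM in CAST/EiJ.

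The 4 noncoding RNAs were between 11.2 and 393 times lower. RP23-2D23.2, named 4933432K03Rik in GENCODE M21, is antisense to Hs3st2 (chr7:121468844-121609334, minus strand). It held 19.3 to 27.2 CPM in C57BL/6J (median 22.3), 18.5 to 25.9 CPM in NZO/HlLtJ (median 20.9) and 0 to 0.203 CPM in CAST/EiJ (median 0.0285). Hs3st2, on the other strand, was at 1.20, 1.03 and 0.00374 CPM. Cep112os1, antisense to Cep112, averaged 27.4 ± 2.76, 20.1 ± 2.08 and 0.895 ± 0.272 CPM, while Cep112 was at 114, 114 and 100 CPM. RP23-378L12.2 averaged 7.11 ± 0.751, 5.15 ± 0.841 and 0.115 ± 0.0605 CPM, and D6Ertd474e 11.1 ± 0.948, 10.4 ± 0.929 and 0.925 ± 0.366 CPM. The sources used here do not say whether counting used strand, so overlapping genes on opposite strands may share counts. Zfp783, listed in GENCODE M21 as a transcribed pseudogene and overlapped on the same strand by Zfp956 (130, 118 and 137 CPM), averaged 6.74 ± 0.668, 7.74 ± 1.08 and 0.781 ± 0.211 CPM.

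**Figure D3:**
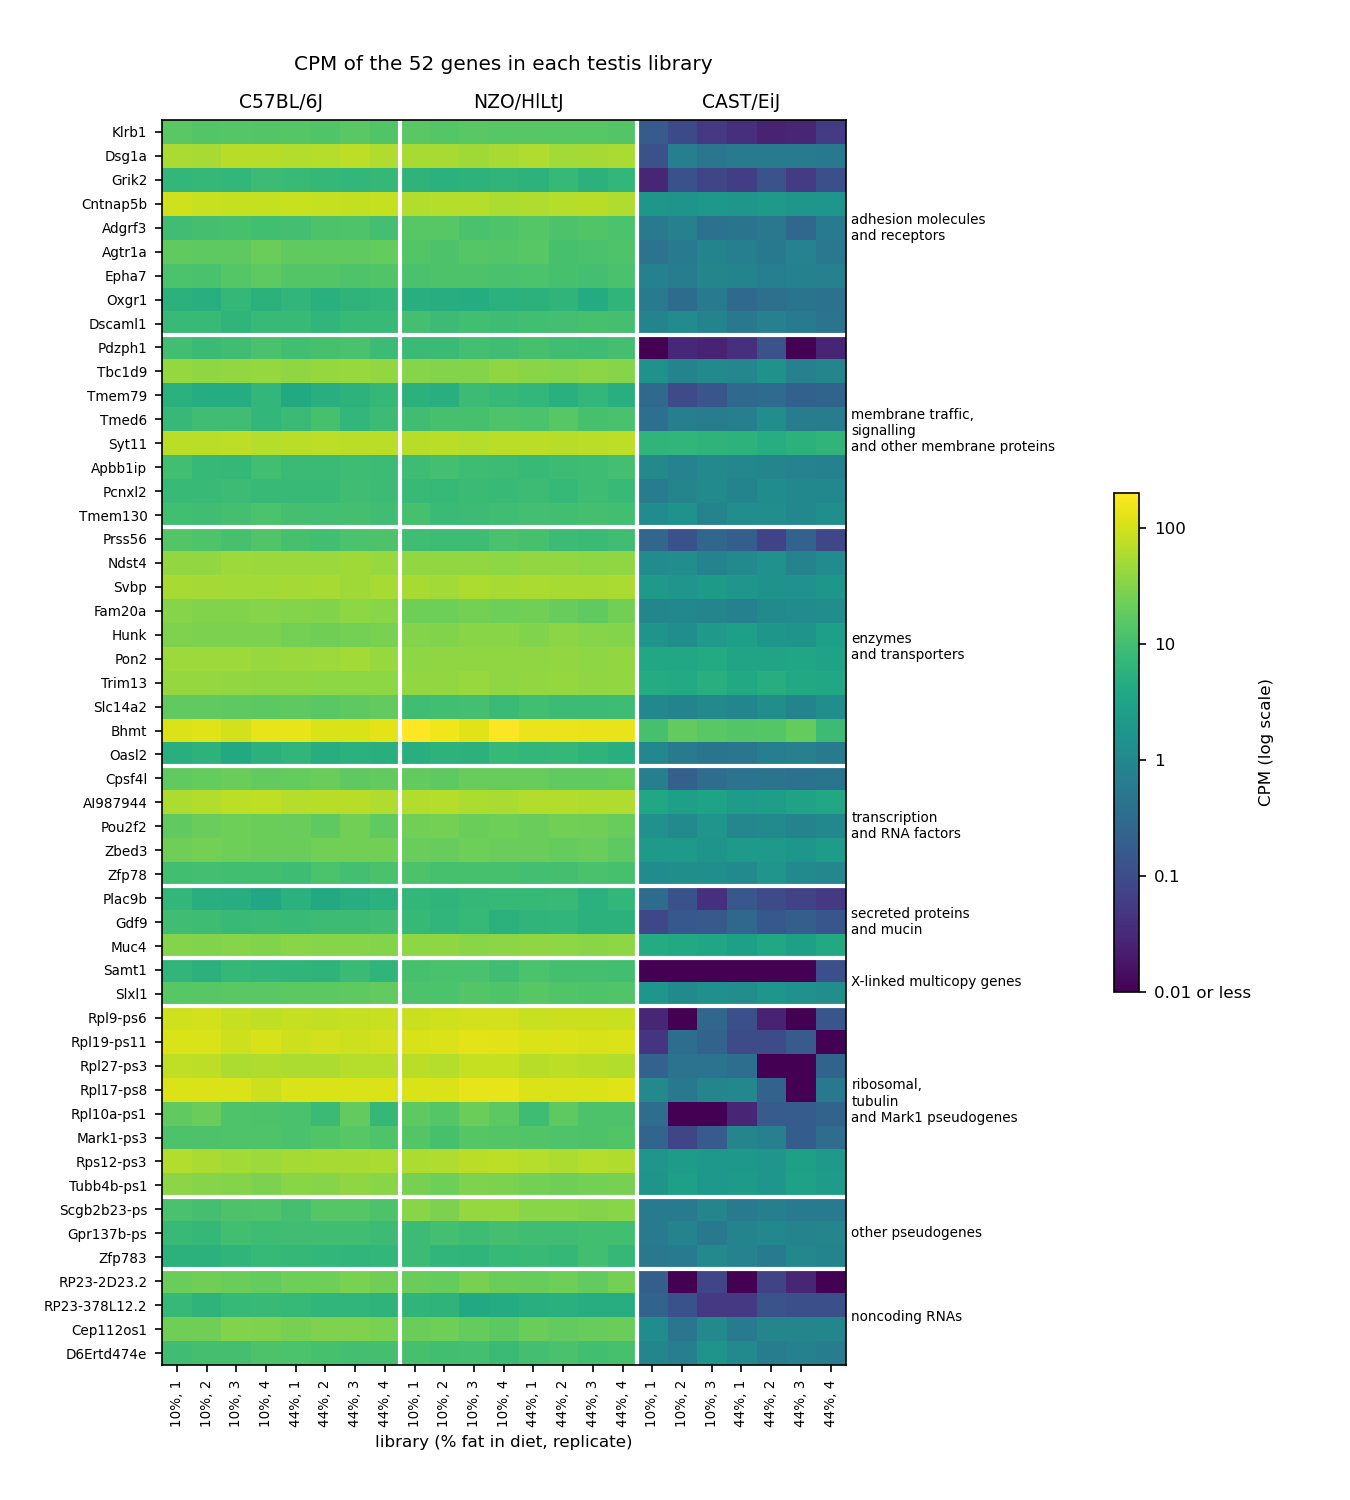
CPM of the 52 genes (rows, by group) in each of the 23 libraries (columns), on a log color scale that ends at 0.01 CPM. All 52 rows are darker in the 7 CAST/EiJ columns, and the Samt1 row is at the end of the scale in 6 of them.

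Across the 52 genes, the CAST/EiJ mean was between 8.02 and 1066 times below the lower mean of the other strains, and the median ratio of those means was 0.0476. It was at least 100 times lower for 10 genes, 20 to 100 times for 18 and 8 to 20 times for 24. In 32 genes the CAST/EiJ mean was below 1 CPM, and 8 genes had under 0.5 estimated counts in at least 1 CAST/EiJ library, with 0 genes so in every one. Every CAST/EiJ library lay below every other library for all 52, which holds for 18.3% of the 11807 genes with 5 CPM; the rule used this contrast. Summed over the 52 genes, libraries held 1552 to 1621 CPM in C57BL/6J, 1549 to 1698 CPM in NZO/HlLtJ and 65.5 to 75.2 CPM in CAST/EiJ. Just inside the limit of 1/8 lay Oasl2, Zfp78 and Tmem130, with ratios of 0.123, 0.124 and 0.125, and just outside lay Kcnq3 (0.128), Egflam (0.134) and Ppp1r2-ps3 (0.134). Just inside the limit of 5 CPM lay Plac9b (5.05), RP23-378L12.2 (5.15) and Oasl2 (5.40), and just outside lay Six2 (4.78), Fbxw27 (4.79) and Ppp1r2-ps4 (4.92).

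The genes were scattered over the genome. They lay on 18 chromosomes, with 1 to 6 on each, and 1 pair lay within 1000 kb, Tmem79 and Syt11 on chromosome 3, 416 kb apart. Around the 52 genes, 594 other genes within 1000 kb had 5 CPM in both strains. Of these 6 (1.01%) met the limit of 1/8, against 0.859% of all such genes outside the 52. Since the 52 were left out of both shares, every low gene counted is one set aside for its symbol. Among the neighbours 92.6% had a CAST/EiJ mean between 0.5 and 2 times the lower of the other strains, against 93.0% of all outside the 52. The 6 were 4933434M16Rik and 1700025D23Rik near Cpsf4l, 1700096J18Rik near Fam20a and Cep112os1, Vmn2r-ps54 near AI987944, Gm16405 near Slxl1 and 1700126G02Rik near D6Ertd474e. Pdzph1, Epha7, Grik2 and Cntnap5b had no neighbour with 5 CPM. Loci differed: near Pon2 4 of 13 such neighbours had a ratio below 0.5 and 2 a ratio above 2. The 3 within 200 kb of Pon2 were all below 0.5 (median 0.312). Near Slxl1 3 of 4 were below 0.5. These 4 are close copies of Slxl1 itself (Gm16430, Gm14595, Gm14590 and Gm16405), whose counts are uncertain one by one.

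By biotype in GENCODE M21, the limit of 1/8 was met by 19.5% of the 77 processed pseudogenes, 16.2% of the 235 lincRNAs, 9.29% of the 183 antisense RNAs and 0.557% of the 10960 protein-coding genes with 5 CPM in both strains, before symbols were set aside. The longest transcripts of the 39 genes listed as protein coding had a median of 3099 bases and 6 exons, against 3460 bases and 9 exons for the 10960. Their median GC content was 49.4%, against 49.2%.

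Promoter sequence was available from RefSeq (GRCm38.p6) for 30 of the 52 genes, with 37 transcription starts. The 250 bases before the start are shown for Bhmt and Cntnap5b, which are among the protein-coding genes with the most counts; they are the reference sequence of C57BL/6J. Capitals mark CCAAT and GGGCGG on either strand. The Bhmt window is chr13:93637759-93638008 (minus strand) and the Cntnap5b window chr1:99772151-99772400 (plus strand), counted from the RefSeq starts, which differ from those of the deposited gene models, so that the Bhmt window reaches into the deposited model.
Bhmt: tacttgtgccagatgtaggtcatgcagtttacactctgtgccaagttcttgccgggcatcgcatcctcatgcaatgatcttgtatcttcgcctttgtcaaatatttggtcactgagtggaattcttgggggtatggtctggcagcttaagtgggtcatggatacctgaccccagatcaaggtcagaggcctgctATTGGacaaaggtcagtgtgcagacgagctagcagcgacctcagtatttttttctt
Cntnap5b: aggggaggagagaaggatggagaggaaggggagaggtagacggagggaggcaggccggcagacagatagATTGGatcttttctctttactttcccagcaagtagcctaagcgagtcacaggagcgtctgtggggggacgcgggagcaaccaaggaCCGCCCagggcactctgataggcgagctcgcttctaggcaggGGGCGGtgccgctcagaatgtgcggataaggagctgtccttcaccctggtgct

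Searched on both strands, CCAAT was found in 14 of the 37 windows of these genes and in 35.6% of the 11284 windows of genes with 5 CPM in both strains. GGGCGG was found in 14 and in 54.9%, TATAAA in 6 and in 6.47%, and TGACGTCA in 0 and in 2.83%. The Bhmt window held 1 CCAAT and no GGGCGG, and the Cntnap5b window held 1 CCAAT and 2 GGGCGG. The median GC content of the windows was 53.6%, against 59.2%, and the median ratio of observed to expected CpG was 0.457, against 0.720.

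The series asks how genotype and diet interact in diabetes models. The difference between diets was not used to choose the genes. With edgeR's quasi-likelihood test and Benjamini-Hochberg adjustment over all 22873 genes tested, 0 of the 52 genes passed an adjusted p of 0.05 for 44% minus 10% fat in C57BL/6J, where 0.00874% of all genes and 0.0169% of those with 5 CPM passed, and 1 had an unadjusted p under 0.05 (2.93% of all genes). In CAST/EiJ 0 of 52 passed, as did 0% of all genes. There 11 of the 52 had an unadjusted p under 0.05, against 4.11% of all genes and 2.81% of those with 5 CPM in the other strains. The 52 were chosen for low CAST/EiJ counts, and 32 averaged below 1 CPM there. Their median absolute log2 fold change was 0.262, against 0.0483 for genes with 5 CPM. Whether low counts account for the 11 was not tested. In NZO/HlLtJ 0 of 52 passed, against 0.00437% of all genes and 0.00847% of those with 5 CPM, and 0 had an unadjusted p under 0.05 (6.8% of all genes). The diet effect in NZO/HlLtJ minus that in C57BL/6J passed for 0 of 52 and 0% of all genes, with 0 at an unadjusted p under 0.05 (4.05% of all genes). DESeq2 called 0 of the 52 in each of these comparisons except CAST/EiJ, where it called Mark1-ps3 alone.

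For Mark1-ps3 the CAST/EiJ libraries held 0.0807, 0.171 and 0.252 CPM on 10% fat and 0.185 to 0.906 CPM on 44% fat, so the groups overlapped. Its log2 fold change was 1.76 (SE 0.41), with an adjusted p of 0.620 by edgeR and 0.0159 by DESeq2. Without CAST/EiJ 44% fat replicate 3 the edgeR value was 0.0214. The next smallest adjusted p in CAST/EiJ was that of Dscaml1, with 0.973 ± 0.182 CPM on 10% fat (n = 3) and 0.588 ± 0.124 CPM on 44% fat (n = 4), a log2 fold change of -0.72 (SE 0.18) and an adjusted p of 0.636 by edgeR.

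Between NZO/HlLtJ and C57BL/6J most differences in these genes were small. Averaged over diets, 29 of the 52 genes (55.8%) passed edgeR's test, against 59.1% of all genes tested and 68.2% of those with 5 CPM in both strains. Of these 9 were higher in NZO/HlLtJ (17.3% against 30.4% of all genes) and 20 lower (38.5% against 28.7%). Among the 11807 genes with 5 CPM in both strains the shares were 33.3% and 34.9%. The median log2 fold change was -0.06 over the 52 genes and 0.01 over all genes.

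Scgb2b23-ps, a secretoglobin pseudogene on chromosome 7, rose most. It held 10.8 to 14.9 CPM in C57BL/6J (median 12.7), 28.0 to 42.3 CPM in NZO/HlLtJ (median 34.1) and 0.569 to 0.917 CPM in CAST/EiJ (median 0.585), so the 3 strains did not overlap. Its log2 fold change in NZO/HlLtJ was 1.40 (SE 0.07, edgeR adjusted p = 1.86e-15). Samt1 rose by 0.62 (SE 0.10, adjusted p = 5.57e-06), but its sum with copies was lower in NZO/HlLtJ, at 28.4 against 35.4 CPM. Bhmt rose by 0.30 (SE 0.10, adjusted p = 0.00992), with 123 ± 13.2 CPM in C57BL/6J and 159 ± 25.5 CPM in NZO/HlLtJ, and DESeq2 gave an adjusted p of 0.0663. Plac9b, Tmed6, Dscaml1, Adgrf3, Hunk and Rps12-ps3 also rose, by 0.18 to 0.41.

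Slc14a2, the urea transporter, fell most. It held 15.6 to 18.6 CPM in C57BL/6J (median 17.2), 8.59 to 10.2 CPM in NZO/HlLtJ (median 9.43) and 0.879 to 1.32 CPM in CAST/EiJ (median 1.02), again with no overlap between strains. Its log2 fold change was -0.94 (SE 0.06, edgeR adjusted p = 2.60e-13). Fam20a changed by -0.62 (SE 0.07, adjusted p = 4.08e-09), Agtr1a by -0.52 (SE 0.07, adjusted p = 6.36e-07) and Gdf9 by -0.51 (SE 0.08, adjusted p = 1.85e-06). Cntnap5b changed by -0.48 (SE 0.04, adjusted p = 8.84e-12). Of the 9 receptor and adhesion genes, a group put together by hand, 6 fell (Cntnap5b, Agtr1a, Dsg1a, Grik2, Epha7 and Oxgr1), where 28.7% of all genes and 34.9% of those with 5 CPM were lower. Adgrf3 and Dscaml1 rose, and Klrb1 did not pass (log2 fold change -0.01, SE 0.05). For Syt11 the change of -0.09 was at the threshold (adjusted p = 0.0498), and leaving out 1 library ended the call in 17 of 23 cases.

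Among the ribosomal and tubulin pseudogenes, Rps12-ps3 rose by 0.18 (SE 0.06, edgeR adjusted p = 0.00836), Tubb4b-ps1 changed by -0.45 (SE 0.07, adjusted p = 9.57e-07), and the other 5 did not pass. Among 70 tested genes named Rpl and a number, pseudogenes included, 22 were higher and 9 lower in NZO/HlLtJ. Among 45 named Rps and a number in the same way, 20 were higher and 1 lower. Of all genes 30.4% were higher and 28.7% lower.

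**Figure D4:**
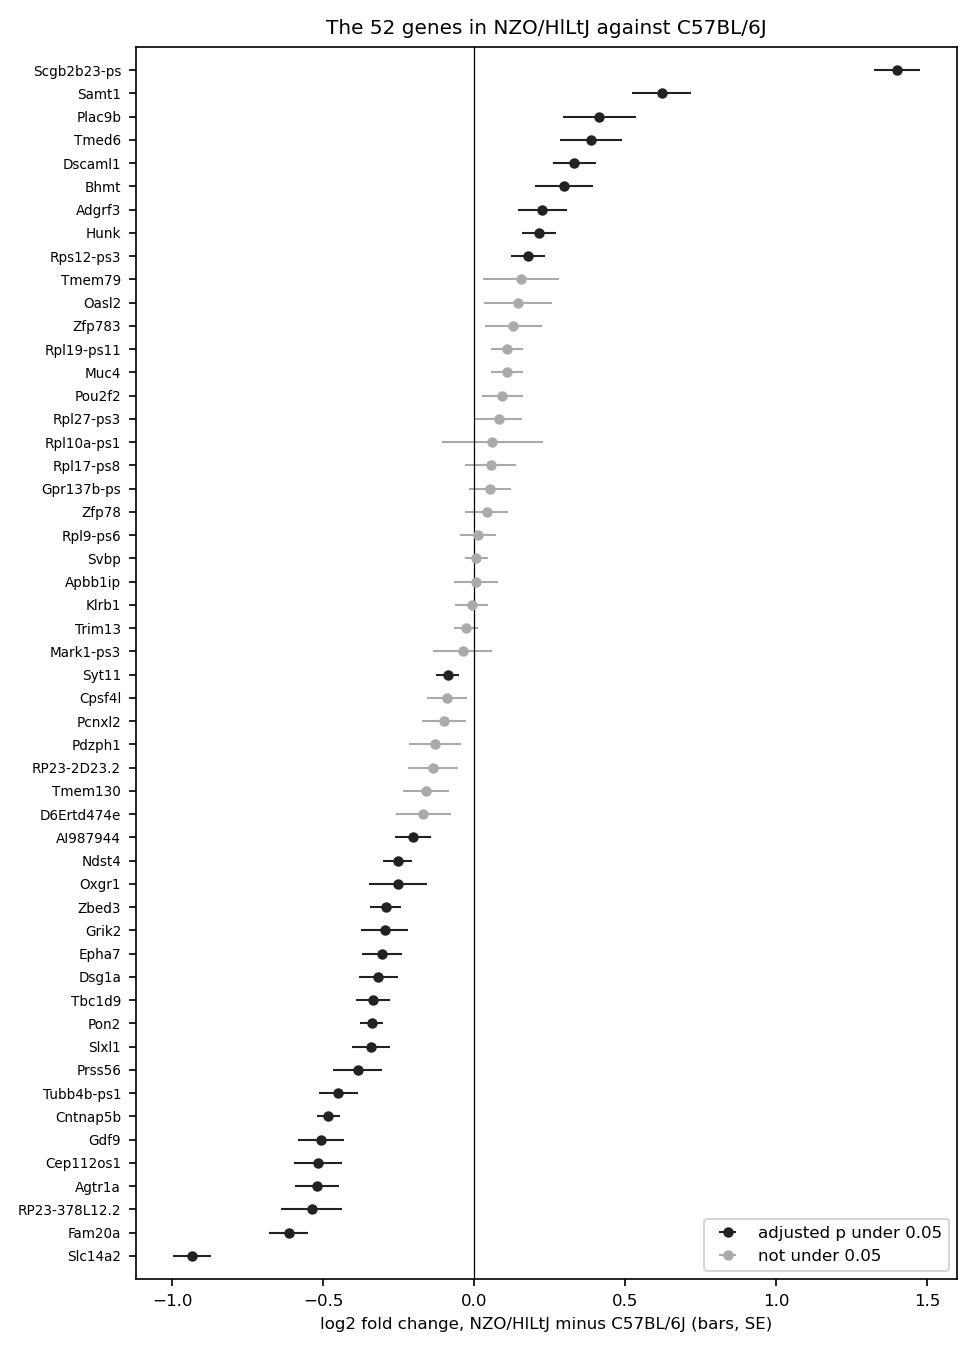
Log2 fold change, NZO/HlLtJ minus C57BL/6J averaged over diets, of the 52 genes with its standard error as bars; black points passed an adjusted p of 0.05 in edgeR's quasi-likelihood test. Most lie within 0.5 of 0, with Scgb2b23-ps at 1.40 and Slc14a2 at -0.94.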

How the data were processed

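Testis polyA RNA was sequenced as 100-base read pairs, per the labels' protocols. The authors deposited a table of estimated counts per gene, in which 22.6% of values are more than 0.001 from a whole number. They also deposited log2 values from a variance-stabilising transformation, in which the 52 genes had a median CAST/EiJ decrease of -1.66 (values in that table run from 7.67 to 19.3). The submitters' processing notes name GRCm38 and DESeq2. The sources used here do not give the aligner, the counting tool, its strand setting or how strain variants were handled. Gene positions came from the deposited annotation table.

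CPM was the estimated count over the column total. For tests, counts were rounded and fitted with edgeR 4.0.16 (filterByExpr on 6 groups, TMM, quasi-likelihood F test, all 23 libraries, Benjamini-Hochberg over 22873 genes, threshold 0.05), with DESeq2 1.42.0 as an alternative in R 4.3.3. The model was tested on simulated data for diet in NZO/HlLtJ alone, with changes put into genes of at least 5 CPM. The simulated data held 50 changes each of 1.5, 2, 4 and 8-fold, with the spread taken from the fitted model. It recovered 98% of the 50 changes of 1.5-fold, with 6 false calls among 22433 unchanged genes. So many true changes make the adjustment more lenient than in the measured data, so this share can overstate what the test would find there. Diet in CAST/EiJ and differences between strains were not checked in this way. Transcripts from GENCODE M21 were aligned with blastn 2.17.0. Of the 52 genes, 51 matched that annotation by identifier, 38 with the same start and end.

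The genes and lists were chosen with earlier results of these data known. All 52 genes may be named. Per-library ranges are given for the 12 highest by lower mean CPM, the 12 lowest by ratio, those within 1000 kb of another, and those with copies. Scgb2b23-ps, Slc14a2, Mark1-ps3 and Dscaml1 were given in more detail after their values were seen. Replicate pairs differed by more than counting error (chi-square over degrees of freedom 3.47 to 19.0 over 33 pairs). No column of another sample was used.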

Additional observations from a re-analysis of the deposited data

Results flagged for a closer look

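Values of the 52 genes and of 9 pseudogene pairs were screened in each strain for a library far from the rest (7 or 8 libraries). Of 183 sets of values 12 (6.56%) had one. The limits flag about 1 in 20 sets of normally distributed values, a rate that need not hold for low CAST/EiJ values. In C57BL/6J, 10% fat replicate 4, the library with the lowest total, had Rpl17-ps8 at 94.2 CPM, below the next at 112 CPM, and its sum with Rpl17 at 95.4 CPM, below 114 CPM. Mark1-ps3 was highest in C57BL/6J 44% fat replicate 3, at 15.3 CPM against 13.3 CPM for the next.

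The other 9 were CAST/EiJ values below 2 CPM. In CAST/EiJ 10% fat replicate 1, Dsg1a was low at 0.115 CPM (next 0.487), while Plac9b at 0.325 CPM, RP23-2D23.2 at 0.203 CPM and RP23-378L12.2 at 0.232 CPM were high. In 10% fat replicate 3, D6Ertd474e at 1.68 CPM and Scgb2b23-ps at 0.917 CPM were high. In 44% fat replicate 2, the library with a high epididymal sum, Pdzph1 at 0.127 CPM and Tmed6 at 1.32 CPM were high (next 0.0381 and 0.712). That sum rested nearly all on Crisp1, and the part of epididymal tissue was not tested. In 44% fat replicate 4, Samt1 was at 0.112 CPM, the only CAST/EiJ library with at least 0.5 estimated counts of it.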

How the results depend on the processing

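The number of genes chosen depended on the limits: 105 with a ratio of 1/4, 30 with 1/16, 127 with a minimum of 1 CPM, 34 with 10 CPM and 153 with no symbol set aside. It was 50 to 53 when each library was left out in turn, with at least 50 of the 52 shared. It was 42 when counts were summed over close copies, an alternative chosen after seeing the data, as was leaving out both libraries with epididymal transcripts, which kept all 52. For diet in CAST/EiJ, DESeq2 called 1 gene (Mark1-ps3), and leaving out each library gave 0 to 1. The counts of 0 for the other diet comparisons held under every alternative run. For NZO/HlLtJ minus C57BL/6J, a 2-fold limit left 1 gene (Scgb2b23-ps), and leaving out each library gave 27 to 30. The run of sample ID numbers as a covariate, DESeq2 size factors and no filter stayed within 1.5 times of the main count. A copy limit of 95% identity gave 11 genes with copies in place of 13, and a window of 200 kb held 1 low neighbour in place of 6. No paired analysis was possible because the labels give no replicate numbers or pairing. CAST/EiJ means below 1 CPM rest on few counts, and at these levels folds are rough.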
